A study of Mus musculus with 78 samples.

Results

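Liver RNA of 6 male mice aged 12 months was compared: 3 calorie-restricted males, whose daily ration of the Purina 5LG6 diet had been cut by 40% for 8 months, and 3 control males given that diet without restriction. These are 6 of the 78 libraries of the series, which holds 26 groups of 3, and they were taken by their labels for stock, age, sex and intervention, with no measured value in the choice. All 6 males were UM-HET3 mice, a deliberately heterogeneous stock in which each animal carries its own mix of the founder genomes, and the controls were littermates of the treated mice according to the series' design. Whole liver had been frozen at death and poly(A) RNA sequenced in paired ends, so hepatocytes supplied most of the signal and all other liver cells were included. The hour of collection and the time since the last meal are not given in the sources used here. For the comparisons further on, the series also held UM-HET3 females of 12 months (3 restricted by 40% for 8 months, 3 controls), UM-HET3 males of 6 months (3 restricted by 40% for 2 months, 3 controls), and males of 12 months given acarbose at 1000 ppm or rapamycin at 14 ppm for 8 months (3 each), which share their 3 controls with the restricted males. Of 43629 genes in the count table, 13639 were expressed well enough at 12 months to be tested.

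Calorie restriction, a cut in food intake without malnutrition, lengthens life in many laboratory animals, and the liver answers changes in feeding by switching between storing and burning fuel. Several control systems meet in this organ. The circadian clock is a loop in which ARNTL (BMAL1) and CLOCK switch on the Per, Cry and Nr1d genes, whose proteins then switch their own activators off, and meal times set its phase in liver. Growth hormone is released in sharp pulses in males and more evenly in females, and this difference keeps many liver genes, above all cytochrome P450s and major urinary proteins, at different levels in the sexes. Heat shock factors hold the supply of protein-folding chaperones to demand, and PPAR-alpha, a receptor for fatty acids, turns on fat oxidation during fasting.

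The sequences below show the letters that such regulators recognise in front of genes whose RNA changed. They are stretches of RefSeq promoters (assembly GRCm38.p6, 250 bases before each start searched on both strands), given 5′ to 3′ along the strand of the gene, with each match in capitals and up to 30 bases on either side. The first 5 belong to chaperone genes that rose with restriction and hold GAANNTTC, the core of a heat shock element. Hspd1 and Hspe1, which encode the mitochondrial chaperonin pair HSP60 and HSP10, stand head to head, so that the same stretch of chromosome 1 appears once on each strand.

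Hspd1, chr1:55088034-55088101, minus strand: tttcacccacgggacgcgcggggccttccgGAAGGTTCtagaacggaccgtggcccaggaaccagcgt
Hspe1, chr1:55088034-55088101, plus strand: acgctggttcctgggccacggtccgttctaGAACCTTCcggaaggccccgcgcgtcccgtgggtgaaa
Hspb1, chr5:135887772-135887859, plus strand: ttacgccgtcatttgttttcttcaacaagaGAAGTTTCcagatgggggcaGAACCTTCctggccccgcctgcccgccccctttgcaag
Dnaja1, chr4:40722314-40722381, plus strand: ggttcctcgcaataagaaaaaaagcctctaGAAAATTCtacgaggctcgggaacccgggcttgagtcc
Fkbp4, chr6:128438770-128438837, minus strand: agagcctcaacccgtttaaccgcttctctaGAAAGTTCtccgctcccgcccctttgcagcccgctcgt

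GAANNTTC was found in 2199 of 32851 promoters (6.69%) and in 6.17% of the 10311 tested genes with a promoter entry. Among the heat shock list, 19 genes had an entry and 7 held a match, 5 of them among the 9 listed genes that rose and had an entry. The E-box CACGTG, the site of the clock's ARNTL and CLOCK, stood in 1978 of the 32851 promoters (6.02%), in 9.76% of tested genes and in 7 of 23 clock genes, among them Cry1. The interferon-stimulated response element stood in 978 promoters (2.98%), in 3.35% of tested genes and in 16 of 25 interferon genes, among them Isg15, whose 3 matches overlap one another. Both are shown for the changed genes of these lists that held a match. Of 4 changed clock genes with an entry 2 held the E-box, and Nr1d1 and Nampt did not. Of the 16 interferon genes with a match only Isg15 was called.

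Cry1, chr10:85185079-85185144, minus strand: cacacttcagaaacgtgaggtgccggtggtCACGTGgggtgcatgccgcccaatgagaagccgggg
Lonrf3, chrX:36328334-36328399, plus strand: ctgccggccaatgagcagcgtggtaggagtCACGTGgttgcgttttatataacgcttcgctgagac
Isg15, chr4:156200845-156200926, minus strand: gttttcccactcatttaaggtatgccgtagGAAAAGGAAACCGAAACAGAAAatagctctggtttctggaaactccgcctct

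A match is a run of letters and not a measured binding site.

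The 6 libraries held 16732067 to 19636047 assigned counts, with 3.25% to 4.27% from mitochondrial genes. Libraries of another tissue were not seen among them: the marker counts of skeletal muscle, kidney, adrenal gland and pancreas reached at most 56 in any library, and Acta1, Ckm, Tnnt3 and Tnnc2 of muscle and Cyp11b1 and Mc2r of adrenal gland were at 0 in all 6. The hepatocyte markers Alb, Apoa1, Ttr, Hnf4a and Apob summed to 71483 to 105571 CPM (counts scaled to library size) in controls and 147512 to 161426 in restricted males, a difference mostly in Alb (53541 to 83040 against 128829 to 140291 CPM), and none of the 5 passed the test. The pericentral hepatocyte markers, 11 genes, summed to 6858 to 13574 CPM in controls and 14427 to 14974 in restricted males, and the 5 cholangiocyte markers to 24.8 to 36.5 and 21.2 to 25.1. Sums for Kupffer cells, stellate cells, sinusoidal endothelium and erythroid cells overlapped between the groups. The 5 adipocyte markers summed to 0 to 0.0499 CPM in controls and to 0.0563, 0.426 and 6.00 in restricted 1, 2 and 3. Restricted 1 thus lay next to the controls near 0, and restricted 3 stood furthest apart. In whole tissue, fewer cells of a type and less RNA per cell cannot be told apart, and the part of these shifts in the results was not tested. The first principal component put all 3 restricted livers (26.3 to 35.9) apart from all 3 controls (-34.5 to -26.2).

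Restriction changed 422 of the 13639 genes tested (3.09%) at an adjusted p under 0.05 (edgeR quasi-likelihood test, Benjamini-Hochberg over all genes): 241 rose (1.77%) and 181 fell (1.33%), and 2220 genes had an unadjusted p under that bound. Among them 115 rose and 98 fell at least 2-fold. The 3 restricted and 3 control libraries did not overlap for 419 of the 422, against 1774 of all genes (13%) above and 1486 (10.9%) below the controls. Throughout, levels are TMM-scaled CPM, fold changes are log2 values of restricted over control males with SE, and adjusted p values come from that test. The gene lists and their members were chosen with earlier results of these data known. Their counts beside the share of all genes are thus descriptions and no tests. The number called was 142, 243 and 184 without control 1, 2 or 3 and 225, 139 and 221 without restricted 1, 2 or 3, fits with fewer libraries. Of 79 genes named here or in the closing observations that passed, 26 kept the call in every one of these 6 fits and all kept their direction.

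**Figure D1:**
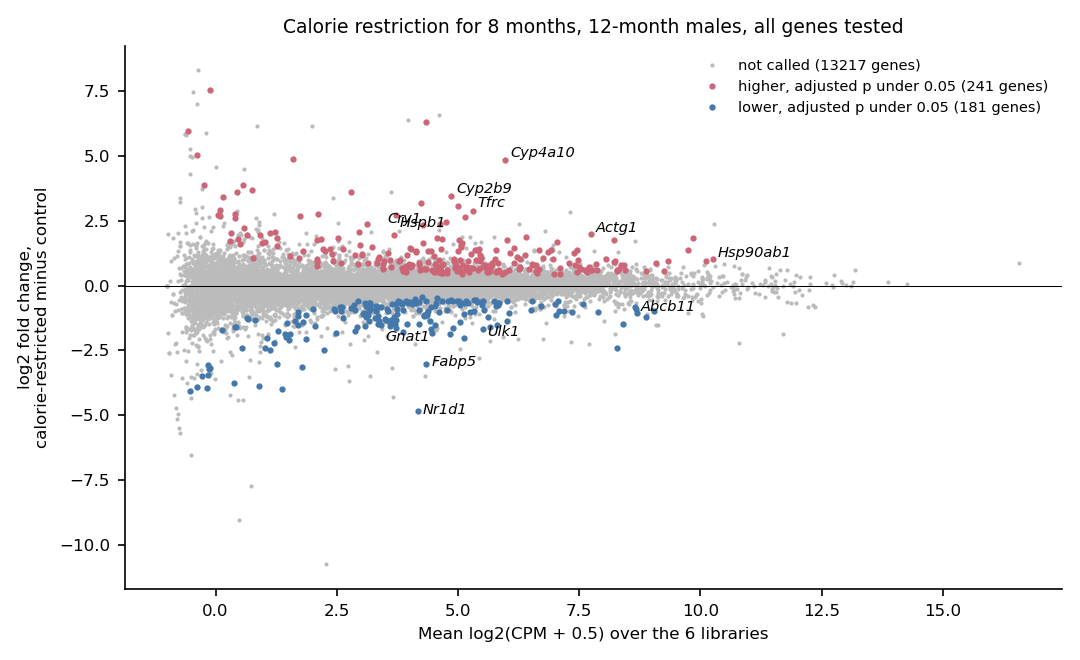
Log2 fold change of restricted over control males (y axis) against mean log2(CPM + 0.5) over the 6 libraries (x axis) for the 13639 genes tested; each point is a gene, red for the 241 that rose, blue for the 181 that fell. Cyp4a10 stands highest among the labelled genes and Nr1d1 lowest.

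Among the clock repressors, Nr1d1 was far lower and Cry1 higher in every restricted liver. Nr1d1 (ENSMUSG00000020889, chr11:98767932-98775333, minus strand, GRCm38) encodes REV-ERB-alpha, a haem-binding receptor that holds Arntl down. It read 145, 54.4 and 113 CPM in controls 1 to 3 and 1.13, 2.38 and 7.41 in restricted 1 to 3. All restricted livers were thus far below the lowest control, and the fold change was -4.84 ± 0.68 (adjusted p 0.00126), 28.6-fold lower in the group means. Cry1 (chr10:85131700-85185064, minus strand) encodes a cryptochrome that blocks ARNTL and CLOCK. Its level was 7.48, 8.94 and 8.77 CPM in controls and 49.1, 47.0 and 33.1 in restricted males, a rise of 2.36 ± 0.28 (adjusted p 0.000309). For Cry1 the spread within a group was small beside the distance between the groups. These calls held without any single library, but Nr1d1 lost its call when only the 6 libraries were fitted (adjusted p 0.0553). Whether counting used strand is not given in the sources used here, and reads of Nr1d1 and of Thra, which overlaps it on the other strand, cannot be told apart. Thra itself read 15.3, 18.3 and 12.6 CPM in controls and 10.2, 9.99 and 8.00 in restricted males (-0.71 ± 0.19, adjusted p 0.0484), a call that held only without control 3 (up to 0.185 otherwise).

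Of the 6 listed clock activators 1 rose. Of 10 repressors, Cry1 rose and Nr1d1 fell, and of 11 output genes 2 rose, Nampt and Lonrf3. Over all genes 1.77% rose and 1.33% fell. Nampt, which makes the NAD+ precursor and is driven by the clock, read 34.5, 34.8 and 34.6 CPM in controls and 112, 96.0 and 145 in restricted males (1.77 ± 0.36, adjusted p 0.00981). Its call was lost without control 1 (adjusted p 0.0502). Lonrf3, a low-abundance gene whose role in liver is little known, read 0.365 to 1.40 CPM against 3.38 to 3.82 (1.83 ± 0.46, adjusted p 0.0339), and only leaving out control 2 kept that call. Other loop genes varied widely among the controls themselves. Dbp, an output factor with one of the deepest daily swings in liver, read 61.4, 5.99 and 75.4 CPM in controls and 2.98, 2.68 and 10.2 in restricted males (-3.17 ± 1.68, adjusted p 0.382). Control 2 thus lay within the restricted range. Arntl read 5.46, 14.4 and 2.66 against 24.3, 22.8 and 9.77 CPM (1.34 ± 1.12, adjusted p 0.632), and Per1 9.03, 6.64 and 34.9 against 16.3, 17.5 and 25.3 (0.23 ± 1.05, adjusted p 0.959). Per2, whose groups did not overlap, read 13.5, 20.4 and 18.2 CPM in controls and 41.1, 35.7 and 84.1 in restricted males (1.63 ± 0.64, adjusted p 0.194). Nr1d2, Per3, Npas2, Clock and Tef had adjusted p values of 0.274, 0.832, 0.418, 0.855 and 0.899.

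**Figure D2:**
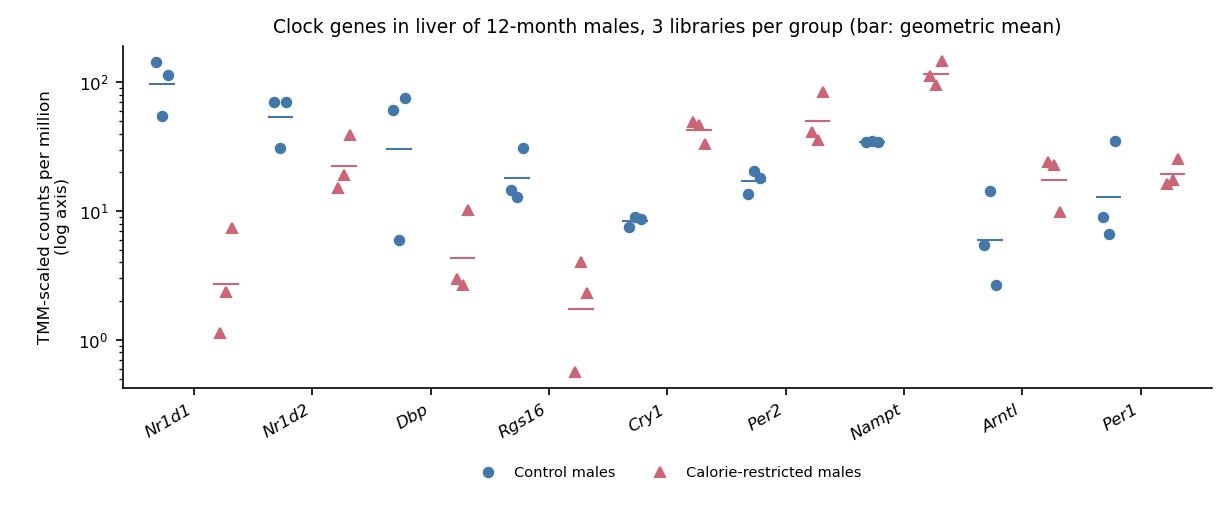
Levels of 9 clock genes (TMM-scaled CPM, log axis) in the liver of each 12-month male; circles are the 3 controls, triangles the 3 restricted males, bars the geometric means. Nr1d1 is lower and Cry1 and Nampt are higher in all 3 restricted livers, while Dbp, Arntl and Per1 overlap.

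Some genes that are normally high in female liver rose in the restricted males. Of 32 listed female-biased genes 4 rose (1.77% of all genes did) and none fell, Cyp39a1, Fmo2 and Cyp2b9 among them. The list was chosen with earlier results of these data known. Its median fold change was 1.19, beside 0.0066 over all genes tested. Fmo2 rose from 2.85, 12.5 and 21.5 to 92.5, 98.4 and 118 CPM (3.07 ± 0.58, adjusted p 0.00808), above the 34.7 to 55.0 CPM of control females. Cyp39a1, a bile acid hydroxylase, rose from 0.290, 0.799 and 0.0522 to 5.63, 15.7 and 13.2 CPM (4.88 ± 0.84, adjusted p 0.00415), still below the 16.4 to 23.6 CPM of control females. Cyp2b9, a steroid hydroxylase, rose from 7.24, 2.30 and 23.1 to 105, 54.8 and 200 CPM (3.47 ± 0.87, adjusted p 0.0374), and control females stood at 461 to 673. The restricted males were above every control male of their own age in each of these genes. On a common scale of both ages Cyp39a1 read 6.35, 22.4 and 10.3 CPM in 6-month control males. In 12-month restricted males it read 6.00, 16.6 and 13.7 on that scale. The 6-month control males read 16.6, 107 and 32.6 CPM for Fmo2 and 1.47, 1.24 and 1.20 for Cyp2b9. The calls of Cyp39a1 and Fmo2 held without any single library, and that of Cyp2b9 held only without control 3 (adjusted p up to 0.161 otherwise). With only the 6 libraries in the fit Fmo2 and Cyp2b9 had adjusted p values of 0.100 and 0.182.

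Not every female-biased gene followed: 23 of the 32 fold changes were positive, and the lowest was -4.70. Cyp2a4 and Acot3 had positive fold changes without passing the test. Cyp2a4, a steroid hydroxylase, read 258 CPM in restricted 3 but 1.58 in each of the other 2, against 0.365 to 2.20 in controls (6.18 ± 1.66, adjusted p 0.0544). Acot3, a peroxisomal thioesterase, read 34.2, 36.0 and 77.3 CPM against 8.83, 0.899 and 2.24 (3.61 ± 1.07, adjusted p 0.0807). On the male-biased side 1 of 21 tested genes fell (1.33% of all genes did), with a list median of -0.92. The one was C6, a complement component, at 185, 187 and 206 CPM in controls and 76.2, 122 and 94.5 in restricted males (-0.98 ± 0.27, adjusted p 0.0484), a call that was lost without any of the 6 libraries (up to 0.178). The male urinary protein Mup7 read 4191, 2008 and 5981 CPM in controls and 620, 1207 and 830.5 in restricted males (-2.20 ± 0.60, adjusted p 0.0520). Hsd3b5, a steroid-reducing enzyme of male liver, read 364, 434 and 303 against 85.8, 123 and 32.4 CPM (-2.19 ± 0.70, adjusted p 0.105). In both the groups did not overlap although the test was not passed. Elovl3, which elongates fatty acids and is high in males, overlapped (159, 535 and 155 against 213, 390 and 33.9 CPM, -0.42 ± 0.99, adjusted p 0.904).

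A wider view came from the sexes of the 6-month controls, libraries that were no part of this comparison. Genes at least 2-fold higher in 6-month control females than males at an adjusted p under 0.05 numbered 173, of which 164 were tested here: 17 rose (10.4%, against 1.77% of all genes) and 1 fell, with a median of 0.36. Of 219 male-biased genes 201 were tested: 15 fell (7.46%, against 1.33%) and 2 rose, with a median of -0.31. In restricted females of 12 months the medians of the same lists were 0.06 and -0.33. The growth hormone and IGF list gave no call among 20 genes. Igf1, the main growth factor that liver releases on growth hormone, read 558, 579 and 537 CPM in controls and 948, 763 and 634 in restricted males (0.49 ± 0.16, adjusted p 0.113), and its carrier Igfals read 182, 181 and 140 against 319, 235 and 214 (0.61 ± 0.22, adjusted p 0.154). Both were higher in each restricted male. Fgf21, the fasting hormone of liver, read 2.51, 5.79 and 2.24 CPM in controls and 0.113, 0.548 and 0.706 in restricted males (-2.94 ± 0.87, adjusted p 0.0733). Ghr, Socs2 and Igfbp1 had adjusted p values of 0.918, 0.788 and 0.718.

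**Figure D3:**
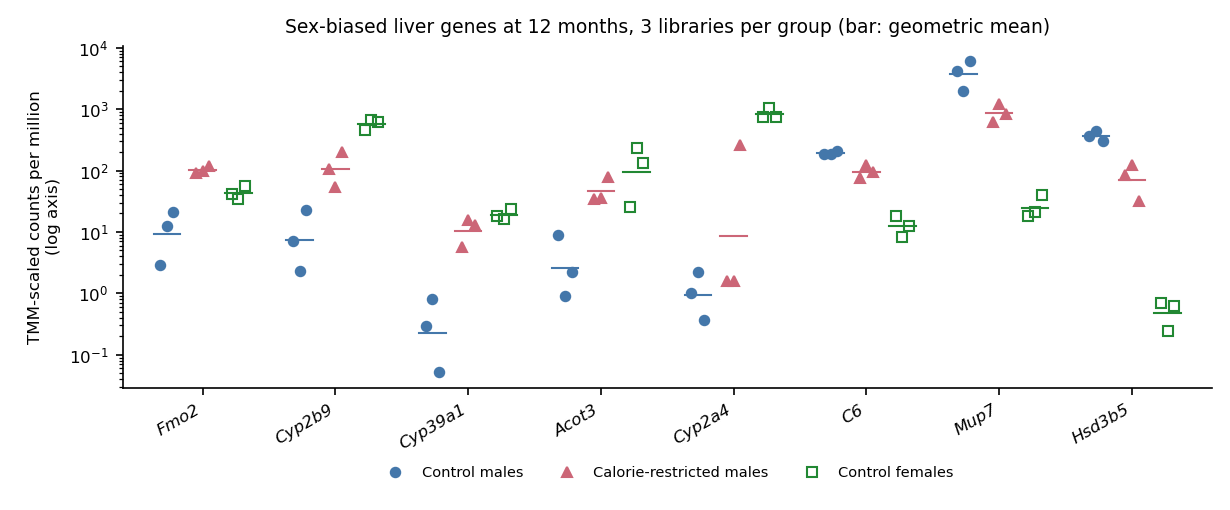
Levels of 8 sex-biased genes (TMM-scaled CPM, log axis, values under 0.03 drawn at 0.03) in control males (circles), restricted males (triangles) and control females (open squares) of 12 months, 3 libraries each, with geometric means as bars. The restricted males lie above the control males for Fmo2, Cyp2b9 and Cyp39a1 and leave the control males' range for C6, Mup7 and Hsd3b5 without reaching the females.

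Many protein-folding chaperones outside the endoplasmic reticulum were higher. In this list of 25 heat shock genes, 12 rose (1.77% of all genes did), none fell and 13 did not pass, with a median of 0.86, and all 12 had restricted livers above every control. Hspa4l, an HSP110-type exchange factor, read 12.6, 17.3 and 10.1 CPM in controls and 48.5, 48.4 and 43.7 in restricted males (1.82 ± 0.27, adjusted p 0.00129). The HSP90 genes followed: Hsp90aa1, the inducible form, read 133, 217 and 135 against 592, 621 and 459 CPM (1.78 ± 0.40, adjusted p 0.0178). Hsp90ab1, the constant form, read 778, 1002 and 807 against 1811, 1900 and 1531 CPM (1.02 ± 0.23, adjusted p 0.0166). Control 2 was the highest of the controls for all 3 and still below the lowest restricted male. In mitochondria Hspd1, one of the genes with the shared promoter stretch, read 420, 394 and 395 CPM in controls and 758, 761 and 679 in restricted males (0.86 ± 0.14, adjusted p 0.00220). Its partner Hspe1 read 111, 154 and 120 against 238, 321 and 203 CPM (0.98 ± 0.26, adjusted p 0.0459). The small heat shock protein gene Hspb1, with a pair of GAANNTTC matches, rose most, from 7.87, 17.2 and 11.7 to 49.7, 119 and 34.4 CPM (2.46 ± 0.63, adjusted p 0.0421). Cacybp rose by 0.95 ± 0.20 and Hspa9, the mitochondrial HSP70, by 0.55 ± 0.12 (adjusted p 0.0130 and 0.0146).

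The other 4 that passed, beyond the naming rule, were the HSP90 co-chaperones Fkbp4 (0.91 ± 0.23), Chordc1 (1.07 ± 0.26) and Stip1 (1.02 ± 0.26) and the HSP40 gene Dnaja1 (0.97 ± 0.25), with adjusted p values between 0.0309 and 0.0401. The stress-inducible HSP70 genes did not share the pattern. Hspa1b, whose reads can be split with its near copy Hspa1a, read 9.41, 23.1 and 8.50 CPM in controls and 3.60, 2.68 and 82.5 in restricted males (1.12 ± 1.13, adjusted p 0.714), with restricted 3 alone above the controls. The HSP40 gene Dnajb1 overlapped (-0.22 ± 0.32, adjusted p 0.817). The cytosolic chaperonin TRiC, a ring that folds actin and tubulin, had 2 of 8 subunits higher (1.77% of all genes rose). These were Tcp1 (0.46 ± 0.11, adjusted p 0.0291) and Cct5 (0.54 ± 0.14, adjusted p 0.0414). All 8 fold changes were positive with a median of 0.47, and without single libraries the count of higher subunits ranged from 0 to 2. The gamma-actin gene Actg1, among the largest increases, read 105, 125 and 97.0 CPM in controls and 367, 598 and 327 in restricted males (1.98 ± 0.27, adjusted p 0.000966). The heat shock count was 2, 7 and 2 of 25 without control 1, 2 or 3 and 4, 3 and 8 without restricted 1, 2 or 3. Hspa4l, Hspd1 and Actg1 kept their calls in all 6 of those fits. Hsp90aa1 and Hsp90ab1 lost theirs without control 1 or 3 or restricted 1 or 2 (up to 0.0966), Hspb1 in every fit but that without restricted 3 (up to 0.215), and Hspe1, Chordc1 and Stip1 in all 6 (up to 0.223).

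**Figure D4:**
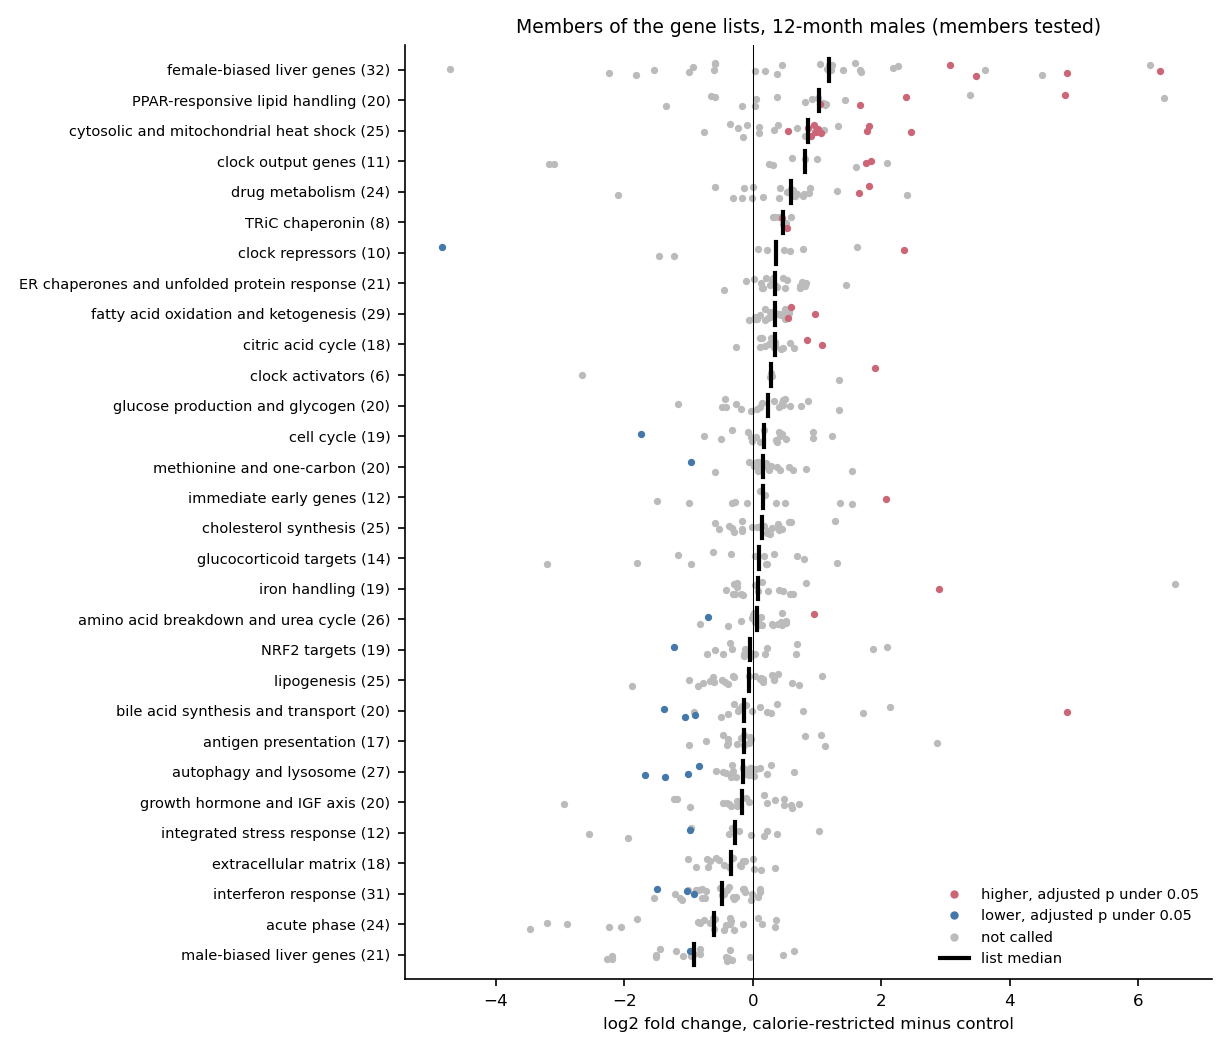
Log2 fold changes (x axis) of the members of 30 gene lists (y axis, number tested in brackets), restricted over control males of 12 months; red members rose, blue members fell, grey members did not pass, and black bars are list medians. The heat shock list has 12 red members and none that fell; the coloured members of the interferon and autophagy lists are all blue.

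Some genes of lipid handling, storage included, also stood higher. Of 20 tested PPAR-responsive lipid handling genes 4 rose (1.77% of all genes did) and none fell, with a median of 1.03: Cyp4a10, Acot1, Plin5 and G0s2. Cyp4a10 (ENSMUSG00000066072, chr4:115518264-115533649, plus strand), which omega-hydroxylates fatty acids, read 18.3, 5.54 and 24.9 CPM in controls and 564, 47.7 and 799 in restricted males (4.85 ± 1.11, adjusted p 0.0243). Restricted 2 was thus far lower than the other restricted livers though above every control. Its neighbour Cyp4a14 read 3.04, 1.90 and 4.44 against 102, 4.39 and 688 CPM (6.40 ± 1.83, adjusted p 0.0713), where restricted 2 fell within the control range. The controls of this age were low: on the common scale of both ages Cyp4a10 read 5.87 to 26.5 CPM in 12-month control males and 1892 to 2780 in 6-month control males, and Cyp4a14 2.01 to 4.73 and 1772 to 2012. Plin5 and G0s2, the lipid droplet protein and the lipase inhibitor, rose by 1.05 ± 0.24 and 1.67 ± 0.45 (adjusted p 0.0203 and 0.0466), and the thioesterase Acot1 by 2.38 ± 0.60 (0.0391). Adipocyte markers, at most 6.00 CPM in sum, were also highest in restricted 3, as Cyp4a10 and G0s2 were, and their part in these results was not tested. None of these 4 calls was held throughout: the list's count was 0, 1 and 1 without control 1, 2 or 3 and 2, 1 and 1 without restricted 1, 2 or 3. Cyp4a and Acot genes have near-identical neighbours between which reads can be split.

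Of 29 genes of fatty acid oxidation and ketogenesis 3 rose (1.77% of all genes did), and 28 of the 29 fold changes were positive, with a median of 0.34. Acsl1, which activates long-chain fatty acids, read 831, 857 and 694 CPM in controls and 1732, 1361 and 1559 in restricted males (0.97 ± 0.20, adjusted p 0.00956). Acadl, the long-chain dehydrogenase, read 175, 170 and 181 against 269, 257 and 270 CPM (0.60 ± 0.14, adjusted p 0.0223), and Cpt2, which releases acyl groups inside mitochondria, rose by 0.54 ± 0.15 (adjusted p 0.0455). Cpt1a, the entry step that fasting raises, overlapped between the groups (0.03 ± 0.26, adjusted p 0.982). In the citric acid cycle 2 of 18 genes rose, beside the same 1.77%, and 17 fold changes were positive. Idh2 read 74.2, 69.0 and 77.7 CPM in controls and 180, 143 and 145 in restricted males (1.08 ± 0.20, adjusted p 0.00544). Idh2 kept the call without any single library, whereas Acsl1 lost it without control 3 (adjusted p 0.0544) and Acadl and Cpt2 without any of the 6 (up to 0.157). Lipogenesis and cholesterol synthesis, 25 genes each, gave no call. Scd1, the desaturase, read 3905, 16367 and 2538 CPM in controls and 2027, 2621 and 1571 in restricted males (-1.88 ± 0.85, adjusted p 0.279), with control 2 the highest.

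Of 27 autophagy and lysosome genes 4 fell (1.33% of all genes did) and none rose, with a list median of -0.15. Ulk1 (chr5:110784488-110810097, minus strand), the kinase that starts autophagy, read 71.4, 67.8 and 105 CPM in controls and 24.7, 24.5 and 27.1 in restricted males (-1.68 ± 0.29, adjusted p 0.00331). Wipi1, which binds the forming membrane, read 13.4, 12.2 and 15.1 against 5.29, 4.51 and 5.94 CPM (-1.37 ± 0.19, adjusted p 0.00104). Restricted livers lay close together and below every control for both. Gabarapl1, which coats autophagosomes, read 354, 283 and 377 against 165, 151 and 189 CPM (-1.01 ± 0.22, adjusted p 0.0166), and Atg14 fell by 0.83 (SE 0.20, adjusted p 0.0254). Ulk1 and Wipi1 kept their calls without any single library; Gabarapl1 lost its call without control 1 or 3 or restricted 1 or 2 (up to 0.0932), and Atg14 in every fit but that without control 2 (up to 0.142). Fbxl20, a subunit of a ubiquitin ligase, was among the clearest decreases of all genes, from 25.1, 23.8 and 29.4 to 7.26, 7.13 and 8.53 CPM (-1.77 ± 0.23, adjusted p 0.000528). In the integrated stress response Sesn2 fell by 0.97 (SE 0.24, adjusted p 0.0290), 1 of 12 genes; that call held only without control 2.

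The bile acid genes moved in both directions, 1 higher (Cyp39a1) and 3 lower of 20, beside 1.77% higher and 1.33% lower of all genes. Abcb11, the bile salt export pump, read 549, 552 and 575 CPM in controls and 361, 274 and 268 in restricted males (-0.89 ± 0.20, adjusted p 0.0161). Abcg8, a partner in cholesterol export into bile, read 99.4, 89.9 and 130 against 31.2, 28.7 and 63.2 CPM (-1.37 ± 0.32, adjusted p 0.0218), and Hsd3b7, an early enzyme of the pathway, 639, 609 and 558 against 337, 281 and 248 (-1.06 ± 0.27, adjusted p 0.0340). Cyp7a1, the rate-limiting enzyme, read 76.0, 33.5 and 64.1 CPM in controls and 112, 243 and 406 in restricted males (2.13 ± 0.82, adjusted p 0.185). The 3 that fell were each below every control, and Cyp7a1 was above every control without passing. Among 24 drug metabolism genes 2 rose, beside the same 1.77%. Cyp2b10, a target of the receptor CAR, rose from 20.8, 23.7 and 13.3 to 81.5, 62.1 and 39.1 CPM (1.66 ± 0.34, adjusted p 0.0100), and the efflux pump Abcb1a by 1.802 ± 0.40 (adjusted p 0.0164). The count of 3 lower bile acid genes was 0, 2 and 0 without control 1, 2 or 3 and 1, 0 and 1 without restricted 1, 2 or 3; Cyp2b10 lost its call without control 3 (adjusted p 0.0587), and Abcb1a without control 2 or 3 or restricted 1 or 3 (up to 0.0789).

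In the list of 31 interferon-induced genes 3 fell (1.33% of all genes did) and none rose, with a median of -0.48. Against the same controls the list median was -0.62 with acarbose and -0.86 with rapamycin, so the lower level was not particular to restriction. Whether these controls were unusually high was not tested. Iigp1, an interferon-induced GTPase, read 256, 194 and 262 CPM in controls and 145, 87.0 and 116 in restricted males (-1.03 ± 0.19, adjusted p 0.00505). Isg15, the ubiquitin-like protein whose promoter is shown above, read 13.3, 22.4 and 14.6 against 8.56, 3.90 and 5.47 CPM (-1.48 ± 0.34, adjusted p 0.0192), and Rtp4 14.2, 16.4 and 15.1 against 10.6, 6.40 and 7.35 (-0.91 ± 0.24, adjusted p 0.0455). Restricted 1 was the highest of its group in all 3. Iigp1 kept its call without any single library, while Isg15 lost it without control 2 or restricted 2 or 3 (up to 0.119) and Rtp4 in every fit but that without restricted 1 (up to 0.214). The acute phase list, 24 genes, had a median of -0.60 and no call, and antigen presentation, 17 genes, -0.14 and no call. Kupffer cell markers summed to 231 to 246 CPM in controls and 134 to 286 in restricted males, and T cell markers to 4.38 to 6.08 and 3.21 to 4.41.

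Iron handling gave a single call of 19 genes (1.77% of all genes rose). Tfrc (chr16:32608920-32632794, plus strand), the transferrin receptor through which cells take up iron, read 24.9, 10.6 and 9.76 CPM in controls and 133, 132 and 74.4 in restricted males (2.90 ± 0.60, adjusted p 0.0135), a 7.48-fold rise of the group mean. Every restricted liver was above the highest control. The call was lost without control 2 or 3 (up to 0.0683). Hamp, the iron hormone hepcidin, overlapped (1275, 1720 and 1812 against 743, 2156 and 1438 CPM, -0.15 ± 0.34, adjusted p 0.898). Its near copy Hamp2 read 1674 CPM in restricted 1 but 21.1 and 23.1 in the others, against 3.97 to 8.84 in controls (6.57 ± 1.89, adjusted p 0.0738). Erythroid markers summed to 374 to 615 CPM in controls and 207 to 586 in restricted males.

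Among the remaining large changes, Cyp26b1, which clears retinoic acid, rose by 3.61 ± 0.84 (adjusted p 0.0250), and the carrier gene Slc16a5 from 6.66, 6.34 and 5.11 to 40.8, 59.5 and 65.0 CPM (3.19 ± 0.57, adjusted p 0.00555). Pcp4l1 rose by 2.73 ± 0.48 (adjusted p 0.00481), Nrep by 2.67 ± 0.42 (0.00185), Nat8f5 by 2.38 ± 0.59 (0.0318) and the ligand gene Wnt5b from 3.14, 3.25 and 4.12 to 11.9, 18.2 and 14.4 CPM (2.08 ± 0.36, adjusted p 0.00326). On the falling side Fabp5, a fatty acid carrier, read 15.9, 113 and 63.9 CPM in controls and 6.65, 7.86 and 9.35 in restricted males (-3.01 ± 0.77, adjusted p 0.0414). Its controls spread widely, and control 1 was the nearest to the restricted males. The adhesion receptor gene Adgrv1 fell by 2.49 (SE 0.63, adjusted p 0.0365), the collagen gene Col5a3 by 1.86 (SE 0.42, 0.0195), Hps1, needed for lysosome-related organelles, by 1.83 (SE 0.30, 0.00220) and the sorting receptor Sort1 by 1.57 (SE 0.38, 0.0253). Gnat1, Cplane1, Pik3ap1, Klhdc7a, Klhl24, Dyrk1b and Tymp completed the largest decreases, with fold changes of -1.82, -1.73, -1.66, -1.65, -1.63, -1.60 and -1.58. Slc16a5, Pcp4l1, Nrep, Wnt5b, Hps1, Cplane1 and Klhdc7a kept their calls without any single library; Cyp26b1, Fabp5, Adgrv1, Col5a3, Sort1 and Pik3ap1 kept theirs in 1 of the 6 fits, Nat8f5 in 2, Klhl24 and Tymp in 3, and Gnat1 and Dyrk1b in none.

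Single members of further lists also passed, beside 1.77% higher and 1.33% lower of all genes, and 1 call says little about a list. Gstm4, a glutathione transferase, fell by 1.22 (SE 0.25, adjusted p 0.00981), 1 of 19 NRF2 targets. Cbs, which sends homocysteine towards cysteine, read 762, 690 and 774 CPM in controls and 489, 354 and 300 in restricted males (-0.96 ± 0.22, adjusted p 0.0186), 1 of 20 methionine and one-carbon genes. Of 26 genes of amino acid breakdown and the urea cycle Asl rose by 0.95 ± 0.23 (adjusted p 0.0280) and Kynu fell by 0.69 (SE 0.17, adjusted p 0.0256). Rrm2, which supplies deoxynucleotides in dividing cells, fell from 3.04 to 4.23 CPM in controls to 0.731 to 1.35 in restricted males (-1.73 ± 0.38, adjusted p 0.0157), 1 of 19 cell cycle genes. Atf3, a stress-induced factor, rose from 0.470 to 1.498 CPM in controls to 2.37 to 5.59 in restricted males (2.07 ± 0.50, adjusted p 0.0253), 1 of 12 immediate early genes. Gstm4 lost its call without control 2, Cbs without control 1 or 3 or restricted 2 or 3, Rrm2 without control 3 or restricted 2 or 3, Atf3 without control 1 or 3 or restricted 2 or 3, Asl in every fit but that without control 3, and Kynu in every fit but that without restricted 1 (adjusted p up to 0.140 over these). Glucose production and glycogen (20 genes), extracellular matrix (18) and glucocorticoid targets (14) gave no call.

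The females of 12 months answered alike on many of these genes. In them 644 of 13639 genes changed (4.72%), 279 up (2.05%) and 365 down (2.68%). Of the 241 genes that rose in males 98 also rose in females, 40.7% of the male list and 35.1% of the female one, and of the 181 that fell 93 also fell (51.4% and 25.5%); none was called in opposite directions. Across all genes tested, which are not independent replicates, the fold changes of the sexes correlated at Pearson's r 0.49 and Spearman's rho 0.56, as a description of 6 male and 6 female libraries. The difference between the sexes itself passed for 0 of 13639 genes (edgeR; before adjustment 453 were under 0.05, and 4 passed in DESeq2). Nr1d1 read 106, 146 and 37.9 CPM in control females and 1.51, 2.13 and 1.42 in restricted females (-5.84, adjusted p 0.000431), and Cry1, Hsp90aa1, Ulk1 and Tfrc also changed in both sexes in the same direction. Acsl1 rose by 0.97 in males and had a female fold change of -0.38 (adjusted p 0.291), a difference of 1.34 ± 0.27 (adjusted p 0.355). One restricted female library held 4778 counts over adrenal markers; without libraries of that kind the count for the sex difference was also 0.

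Males of 6 months after 2 months of restriction gave another picture for several groups. In them 709 of 15159 genes changed (4.68%; 2.05% rose and 2.63% fell) in a joint fit of both ages, and the 12-month minus 6-month difference of the restriction effect passed for 231 (1.52%), 147 higher at 12 months (0.970%) and 84 lower (0.554%). Age and length of restriction cannot be told apart here. The control males of these ages also differed in level for some genes. On a common scale Acsl1 read 2157 to 3002 CPM in 6-month controls and 740 to 907 in 12-month controls. The part of such control levels in the differences was not tested. The chaperones of the endoplasmic reticulum, which fold secreted proteins, showed the clearest contrast: of 21 none was called at 12 months (median 0.34), whereas at 6 months 12 fell (median -0.95), and 10 of the 21 differed between the ages, all higher at 12 months. Hspa5 (BiP), the main such chaperone, read 976, 874 and 1695 CPM in 6-month controls and 317, 353 and 307 in 6-month restricted males. In 12-month males it read 942, 1356 and 890 against 2505, 1735 and 1150 on the same scale. The fold changes were thus -1.86 ± 0.34 and 0.76 ± 0.33, a difference of 2.62 ± 0.47 (adjusted p 0.00199). Tfrc ran from 18.4, 23.3 and 12.8 to 11.6, 6.45 and 6.84 CPM at 6 months (-1.13 ± 0.45) and rose at 12 months, a difference of 4.02 ± 0.64 (adjusted p 0.000461). Among heat shock genes 5 of 25, among fatty acid oxidation genes 3 of 29 and among TRiC subunits 2 of 8 were higher at 12 months by this test, and 4 autophagy genes of 27 were lower. Without the libraries that held markers of another tissue, all 3 fatty acid oxidation calls (Acsl1, Cpt2 and Hadha) and both TRiC calls (Cct3 and Cct6a) were lost, and so were those of Cacybp, Hsp90ab1 and Wipi1.

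Other genes responded at both ages. Cry1 had fold changes of 2.40 at 6 months and 2.36 at 12 months. Of the 241 genes that rose at 12 months 51 had also risen at 6 months. These were 21.2% of the 12-month list and 16.7% of the 6-month one, among genes tested at both ages. Of the 181 that fell 40 had also fallen (22.1% and 10.3%). At 6 months 2.05% of all genes rose and 2.63% fell. In opposite directions 2 genes were called. Across genes the fold changes correlated at r 0.28 and rho 0.23. One restricted 6-month library held 2748 counts over muscle markers. Without it and 7 other libraries of both ages with such counts the age difference passed for 121 genes, Hspa5 and Tfrc among them.

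**Figure D5:**
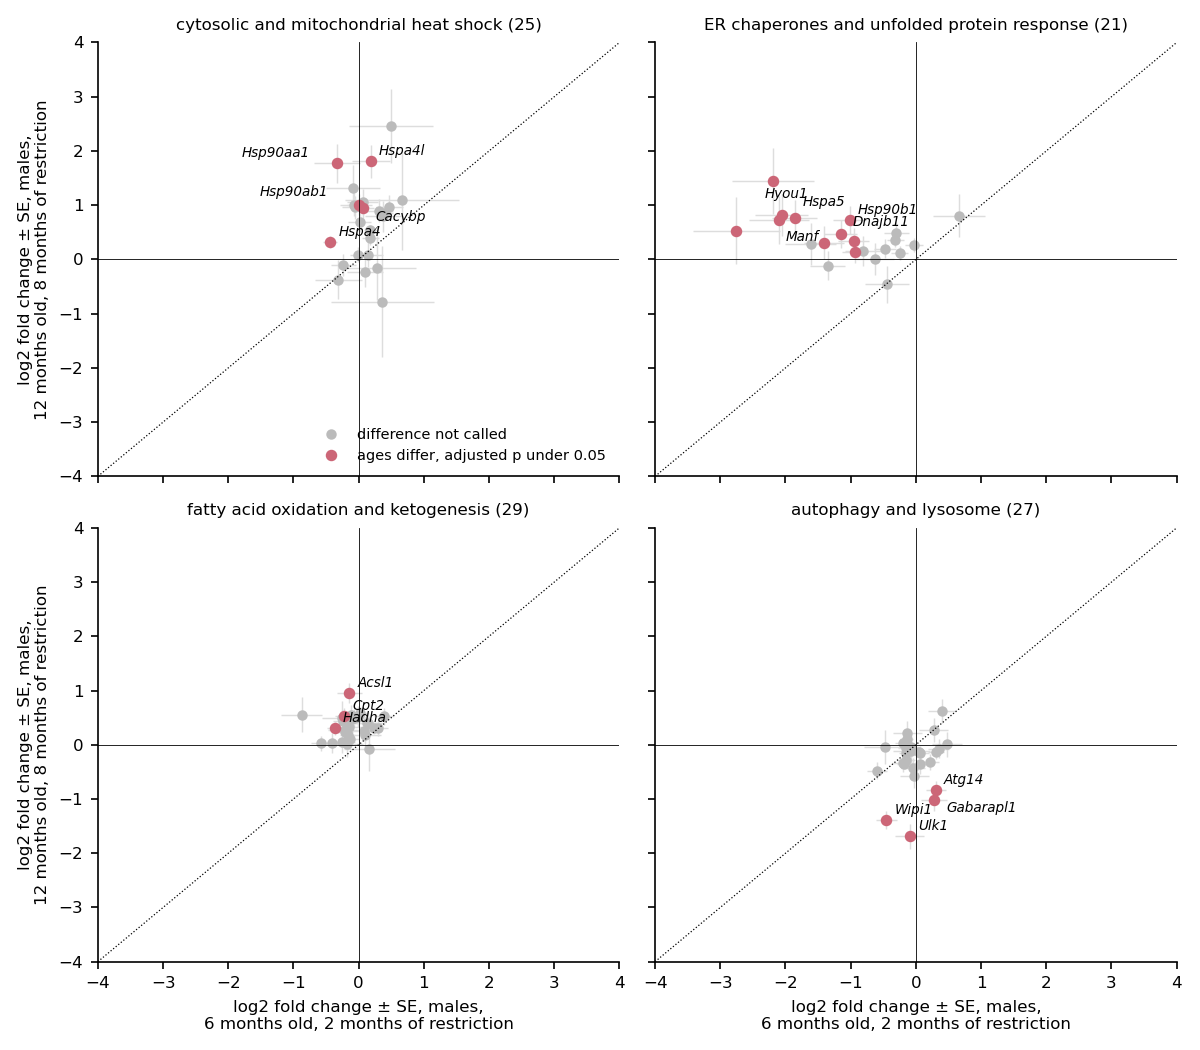
Log2 fold change with SE in 12-month males after 8 months of restriction (y axis) against 6-month males after 2 months (x axis) for 4 gene lists; red members differ between the ages at an adjusted p under 0.05. Most endoplasmic reticulum chaperones lie to the left of 0 at 6 months and near or above 0 at 12 months, and Ulk1 and Gabarapl1 lie well below the diagonal.

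Acarbose, which slows starch digestion, and rapamycin, an inhibitor of the kinase mTOR, were given to males of the same age and share the 3 controls, so their values are only set side by side. Acarbose changed 3 of 13639 genes (0.022%; 0.0147% rose) and rapamycin 1 (0.00733%), with 1226 and 417 at an unadjusted p under 0.05. The gene called in all 3 comparisons, Ifi202b, an interferon-inducible gene named here after its values were seen, had 0 counts in all 3 shared controls. It read 1.07, 0.975 and 1.71 CPM with restriction, 0.459, 1.90 and 0.766 with acarbose, and 1.37, 0.849 and 1.21 with rapamycin. Nr1d1 had fold changes of -4.84, -0.49 and 0.46 with restriction, acarbose and rapamycin, Cry1 2.36, 0.20 and -0.15, and Hsp90aa1 1.78, -0.36 and -0.40. Cyp39a1 read 11.5, 17.9 and 2.57 CPM with acarbose beside the 5.63, 15.7 and 13.2 with restriction. Mup7 read 409, 810 and 1304 CPM and Hsd3b5 90.4, 210 and 121 with acarbose. The female-biased list had medians of 1.19, 0.78 and 0.53 with restriction, acarbose and rapamycin. Those of the male-biased list were -0.92, -0.47 and 0.19. Isg15 had fold changes of -1.48, -0.93 and -1.16. One of the rapamycin livers held 27182 counts over muscle markers.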

How the data were processed

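Liver poly(A) RNA was sequenced in paired ends from 3 mice per group, per the labels. The submitters' processing notes name bcl2fastq 1.8.4, Trimmomatic 0.32, STAR 2.5.2b, featureCounts 1.5 and build GRCm38; whether counting used strand is not given in the sources used here. The authors deposited raw counts per gene, and these counts were used unchanged. Groups came from the labels. Effects at 12 months were fitted with edgeR 4.0.16 in R 4.3.3 (TMM scaling, filterByExpr, robust quasi-likelihood test, 1 coefficient per group) on the 24 libraries of that age; ages were compared in a joint fit of 60 libraries. P values were adjusted by Benjamini-Hochberg over all genes tested, with a threshold of 0.05. Each test was tried on simulated data. Genes were named as the 15 largest changes per direction (mean log2 CPM of at least 2, no overlap), the 6 members of each list with the smallest adjusted p, a set of fixed genes and the 5 largest differences per direction; not all genes so chosen are printed, and some are not reported here. The members and lists were chosen with earlier results of these data known. Alternatives were DESeq2 1.42.0, RLE scaling, no filter, a replicate block, only the compared groups, no libraries with over 1000 counts of other-tissue markers, and each library left out. Coordinates are from GENCODE on GRCm38, promoters from RefSeq on GRCm38.p6.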

Additional observations from a re-analysis of the deposited data

Results flagged for a closer look

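The effect of restriction in males was compared between 12 months (8 months of restriction) and 6 months (2 months of restriction) by a test of the difference in the joint fit, and 231 of 15159 genes passed. The values below are 12-month minus 6-month differences in log2 fold change for the genes named here. Age, length of restriction and the level of the controls cannot be told apart, and no explanation was tested. Cyp4a14 read 1772 to 2012 CPM in 6-month control males and 2.01 to 4.73 in 12-month ones. For Hspa5 the controls overlapped, at 874 to 1695 and 890 to 1356 CPM.

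Among chaperones the difference was 2.62 for Hspa5, 2.88 for Hyou1, 1.75 for Hsp90b1, 3.65 for Creld2 and 3.28 for Sdf2l1, all of the endoplasmic reticulum. In the cytosol it was 2.10 for Hsp90aa1, 0.998 for Hsp90ab1, 1.62 for Hspa4l, 0.88 for Cacybp, 0.85 for Cct3 and 0.62 for Cct6a. For lipid genes it was 5.77 for Cyp4a10, 7.60 for Cyp4a14, 1.10 for Acsl1, 0.75 for Cpt2, 0.67 for Hadha and -1.51 for Acss2. For growth-related genes it was 1.89 for Rrp12, 0.87 for Nop2, 0.79 for Utp18, 1.25 for Odc1 and 1.28 for Srm. Tfrc differed by 4.02 and Actg1 by 2.38. On the lower side it was -1.59 for Ulk1, -0.93 for Wipi1, -1.15 for Atg14 and -1.30 for Gabarapl1 of autophagy. Further lower genes were Abcg8 (-1.497), Cplane1 (-1.70), Dyrk1b (-1.85), Fbxl20 (-1.73), Klhl24 (-1.89), Nr1d1 (-2.48), Cyp2c55 (-3.69), Depp1 (-3.42), Cxcl1 (-3.26) and Crym (-2.22).

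The differences of Hspa5, Hyou1, Rrp12, Tfrc, Actg1, Ulk1, Atg14, Gabarapl1, Dyrk1b, Fbxl20 and Klhl24 passed under every alternative run. Those of Acsl1, Acss2, Cacybp, Cct3, Cct6a, Cpt2, Crym, Cxcl1, Cyp2c55, Depp1, Hadha, Hsp90ab1, Nop2, Nr1d1, Sdf2l1 and Wipi1 did not pass once the libraries with other-tissue markers were left out.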

How the results depend on the processing

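The number of genes changed in 12-month males was 250 with every gene kept and 761 with DESeq2, and 139 to 243 with 1 library left out, where fewer samples enter the fit. The sex difference passed for 1 gene with every gene kept and 4 with DESeq2. The age difference passed for 114 with every gene kept, 121 without libraries holding other-tissue markers, 139 with only the compared groups and 430 with DESeq2, and for 107 to 233 with 1 library left out. With only the compared groups the males had 339. No named gene that was called in the main or the altered fit changed its direction. Among genes called in neither, some did. The fold change of Hspa1b ranged from -2.12 to 1.72 and that of Elovl3 from -1.20 to 0.44. The cause of these shifts was not tested. Of the 79 named genes that passed, 24 lost the call with only the compared groups: Abcg8, Adgrv1, Atf3, Atg14, Cct5, Cpt2, Cyp2b9, Cyp4a10, Fabp5, Fmo2, G0s2, Gstm4, Hspa9, Hspb1, Isg15, Klhdc7a, Lonrf3, Nat8f5, Nr1d1, Rtp4, Sesn2, Tcp1, Thra and Utp18. With every gene kept 22 lost it: Acadl, Acot1, C6, Col5a3, Cyp26b1, Gnat1, Hspe1, Kynu and Pik3ap1, besides Adgrv1, Cct5, Cpt2, Cyp2b9, Cyp4a10, Fabp5, G0s2, Hspa9, Hspb1, Nat8f5, Rtp4, Tcp1 and Thra. The replicate block gave 339 genes in 12-month males, 0 for the sex difference and 240 for the age difference, and 10 of the 79 calls were lost in it (Adgrv1, C6, Cct5, Cpt2, Fabp5, G0s2, Hspe1, Lonrf3, Rtp4 and Stip1). Replicate numbers were not taken to pair samples: same-numbered libraries deviated together with r of 0.118, 0.0841 and 0.104, though each restricted library correlated best with its own number. Lists of sex-biased genes from the 6-month controls had medians of -0.31 (male-biased) and 0.36 (female-biased), beside -0.92 and 1.19 in the chosen lists of sex-biased liver genes. With 3 animals per group, small changes in genes that vary widely between animals are not detectable.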

Other observations

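These groups were picked by their symbols after their values were seen, so their counts describe these libraries and support nothing further. Of 38 tested genes whose symbols begin with Nop, Noc, Nol, Rrp or Utp, names mostly given to ribosome assembly factors, 7 rose and none fell (1.77% of all genes rose), 32 fold changes were positive and the median was 0.31. The median was 0.08 in females and -0.06 in 6-month males. Rrp12 read 9.22, 10.5 and 9.39 CPM in controls and 24.2, 28.1 and 24.8 in restricted males (1.40 ± 0.21, adjusted p 0.00129). Each restricted liver was far above each control. The polyamine enzymes moved the same way: Odc1 read 77.8, 76.4 and 41.3 against 215, 137 and 151 CPM (1.36 ± 0.24, adjusted p 0.00296), and Srm 21.0, 26.2 and 31.1 against 78.8, 73.8 and 59.4 (1.44 ± 0.27, adjusted p 0.00593). Rrp12, Odc1 and Srm kept their calls without any single library.

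Fmo5, a flavin monooxygenase gene, read 498, 660 and 444 CPM in controls and 1341, 1356 and 1438 in restricted males (1.37 ± 0.22, adjusted p 0.00166). Esr1, the oestrogen receptor gene, read 21.6, 18.1 and 23.9 against 44.2, 41.1 and 39.5 CPM (0.97 ± 0.20, adjusted p 0.00955). Both kept the call without any single library.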
